A study of Homo sapiens with 12 samples.

Results

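SOX9-AS1, SOX9, LINC00511 and COG1 are 4 genes of the long arm of human chromosome 17, picked by name from the 60675 genes of the deposited count tables. Each name matched 1 row. They were measured by RNA-seq in 2 cell lines derived from triple-negative breast cancer, HCC1187 and MDA-MB-468, both labelled basal-like. In each line, cells given a short hairpin RNA against SOX9-AS1 (sh-SOX9-AS1) were set against cells given a hairpin against the bacterial gene LacZ (sh-LacZ), 48 h after transfection. HCC1187 was grown in RPMI-1640 and MDA-MB-468 in DMEM, so line and medium cannot be told apart when the lines are compared. There were 3 libraries in each of the 4 groups, called here by the number in their column names: S10 to S12 are HCC1187 sh-SOX9-AS1, S7 to S9 HCC1187 sh-LacZ, S4 to S6 MDA-MB-468 sh-SOX9-AS1 and S1 to S3 MDA-MB-468 sh-LacZ. The hairpins' sequences, and whether more than 1 hairpin was used, are given in none of the sources.

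SOX9 encodes a transcription factor with an HMG box that directs cartilage and testis development and is used by stem and progenitor cells of several epithelia, the mammary gland among them. It lies in a gene desert whose distant enhancers control it in a tissue-specific way. SOX9-AS1 makes long non-coding RNAs from the strand opposite to SOX9, and LINC00511 is a long non-coding RNA gene often described in breast cancer. COG1 encodes a subunit of the conserved oligomeric Golgi (COG) complex, a tether for vesicles that recycle Golgi enzymes.

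In GENCODE v29 (GRCh38), SOX9 occupies chr17:72121020-72126420 on the plus strand. SOX9-AS1 occupies chr17:72034107-72237203 on the minus strand, so that the whole of SOX9 lies inside its span. Of the 19 annotated SOX9-AS1 transcripts, 14 start upstream of SOX9, the nearest of them 227 bases before the SOX9 start, 5 start beyond the SOX9 end, and 2 run across SOX9. The exons of SOX9-AS1 and SOX9 share 0 bases in this annotation. The exon length of SOX9-AS1 given with the counts is 18147 bases, against 10700 in v29, so the authors counted over exons that v29 does not hold, and overlap of those exons with SOX9 was not analysed here. LINC00511 occupies chr17:72290091-72640472 on the minus strand and COG1 chr17:73192632-73208507 on the plus strand. The exons of COG1 share 1155 bases, 21.7% of its exon length, with FAM104A on the opposite strand. No source used here says whether counting used the strand, so reads from such shared stretches cannot be assigned with certainty.

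The start of the nearest upstream SOX9-AS1 transcript is shown because it places the targeted gene head to head with SOX9. The first 60 bases of this transcript (chr17:72120734-72120793, GRCh38, minus strand, 5′ to 3′), read:

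SOX9-AS1 upstream transcript: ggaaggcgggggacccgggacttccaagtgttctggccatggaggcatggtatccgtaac

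The 300-base windows around the RefSeq starts of SOX9-AS1, LINC00511 and COG1 (250 bases before to 50 bases after the start, RefSeq on GRCh38.p14) follow, to let the 3 starts be compared. They lie at chr17:72115967-72116266 (minus strand), chr17:72640423-72640722 (minus strand) and chr17:73192805-73193104 (plus strand). Capitals mark GGGCGG, the core of the GC box bound by SP1-family factors, on either strand.

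SOX9-AS1: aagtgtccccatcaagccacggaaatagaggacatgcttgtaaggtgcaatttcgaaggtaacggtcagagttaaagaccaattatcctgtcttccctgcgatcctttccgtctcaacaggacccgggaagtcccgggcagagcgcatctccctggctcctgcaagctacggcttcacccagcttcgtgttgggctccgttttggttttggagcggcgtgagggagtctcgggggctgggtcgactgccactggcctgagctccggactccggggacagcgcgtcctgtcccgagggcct

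LINC00511: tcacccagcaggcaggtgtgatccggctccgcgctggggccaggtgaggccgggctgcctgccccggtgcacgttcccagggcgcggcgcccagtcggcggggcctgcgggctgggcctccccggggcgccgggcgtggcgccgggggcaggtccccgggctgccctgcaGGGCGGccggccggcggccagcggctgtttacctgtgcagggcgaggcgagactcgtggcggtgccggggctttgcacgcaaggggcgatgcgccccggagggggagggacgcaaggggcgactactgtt

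COG1: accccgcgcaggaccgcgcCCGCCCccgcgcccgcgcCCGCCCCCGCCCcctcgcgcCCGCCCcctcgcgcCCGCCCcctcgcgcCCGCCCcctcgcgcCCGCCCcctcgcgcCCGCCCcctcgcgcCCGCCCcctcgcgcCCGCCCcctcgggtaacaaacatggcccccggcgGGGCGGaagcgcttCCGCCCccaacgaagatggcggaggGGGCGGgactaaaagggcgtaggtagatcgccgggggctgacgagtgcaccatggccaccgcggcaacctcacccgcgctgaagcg

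The COG1 window is 81% G or C with 50 CpG pairs, the LINC00511 window 78% with 35 and the SOX9-AS1 window 59.3% with 20, against a median of 14 CpG over 35116 promoter windows of the same length. GGGCGG occurred 13 times in the COG1 window, some of the matches running directly into each other, once in that of LINC00511 and 0 times in that of SOX9-AS1. At least 1 match is found in 45% of all promoter windows and 13 or more in 0.0399%. The SOX-type words ACAATG and ACAAAG, searched on both strands, occurred 0 times in all 3 windows, and 10.8% and 16.1% of promoter windows hold them. A match or its lack is a property of these letters only.

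Counts here and in all results are those of lane 1, 1 of 3 lanes of each library. Library totals over that lane ran from 6026376 to 10160040 counts. Levels below are CPM, the counts divided by that total and scaled to a common size. The deposited sample tables list 11 libraries and do not list S4, whose counts are present. Over 13638 genes S4 correlated at r = 0.984, 0.986 and 0.992 with the sh-LacZ libraries S1, S2 and S3, and at 0.960 and 0.955 with S5 and S6 of its own group, while S5 and S6 correlated at 0.992 with each other. Of 5678 genes that differed between the MDA-MB-468 groups without S4, S4 lay nearer to the sh-LacZ mean for 4907 (86.4%). S4 was kept under its label, and the MDA-MB-468 calls are given with and without it. Of 7 markers of basal breast epithelium, KRT5, KRT14 and TP63 averaged 0.0553, 0 and 0.107 CPM in HCC1187 sh-SOX9-AS1 and 0.0706, 0.0394 and 0.0394 CPM in HCC1187 sh-LacZ cells. These 3 markers were thus absent or nearly so in HCC1187, while EGFR, another of the 7, averaged 62.9 CPM in sh-SOX9-AS1 and 59.2 CPM in sh-LacZ cells. FOXC1, a transcription factor and also 1 of the 7, averaged 154 CPM in HCC1187 sh-SOX9-AS1 and 198 CPM in HCC1187 sh-LacZ cells, more than the 35.1 and 80.1 CPM of the same groups of MDA-MB-468. In MDA-MB-468, KRT5 alone had 1320, 684 and 659 CPM in sh-SOX9-AS1 cells (S4, S5 and S6) and averaged 1386 CPM in sh-LacZ cells. The labels do not state that libraries of 1 group are separate cultures, so p-values measure only the spread between these libraries. In bulk RNA a lower level in each cell and fewer cells that express a gene cannot be told apart.

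SOX9-AS1, the targeted gene, is given first. In HCC1187 it had 1.33, 0.771 and 0.886 CPM in sh-SOX9-AS1 cells (S10, S11 and S12), against 2.54, 1.54 and 1.85 CPM in sh-LacZ cells (S7, S8 and S9). Every sh-SOX9-AS1 library lay below every sh-LacZ library, which was so for 15.5% of the genes tested in this line. SOX9-AS1 fell 2.11-fold in HCC1187 (log2 fold change −1.08 ± 0.36 (SE), 95% interval −1.79 to −0.37, edgeR quasi-likelihood adjusted p = 0.0349, 3 libraries a group). The call rests on 5 to 9 lane 1 counts per library in sh-SOX9-AS1 and 13 to 24 in sh-LacZ cells. SOX9-AS1 thus passed the filter on low counts chiefly through the sh-LacZ libraries, where it is higher. Without that filter its edgeR adjusted p was 0.0339. DESeq2 gave SOX9-AS1 no adjusted p here, and an unadjusted p of 0.0407. Leaving out S7 (adjusted p = 0.168), S9 (0.0701), S11 (0.0892) or S12 (0.136) ends the call.

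In MDA-MB-468, SOX9-AS1 had 5.04, 4.54 and 4.96 CPM in sh-SOX9-AS1 cells (S4, S5 and S6), against 5.52, 6.70 and 5.95 CPM in sh-LacZ cells (S1, S2 and S3). The groups did not overlap here either, as in 12.5% of the genes tested in MDA-MB-468. The log2 fold change was −0.30 ± 0.20 (95% interval −0.69 to 0.10, edgeR adjusted p = 0.417), and −0.32 ± 0.23 without S4 (adjusted p = 0.274). The target was therefore not shown to have fallen in MDA-MB-468. A halving, a log2 fold change of −1, lies outside that interval.

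SOX9 was lower in sh-SOX9-AS1 cells of both lines. In HCC1187 it had 13.8, 14.04 and 9.74 CPM in sh-SOX9-AS1 cells, against 15.3, 17.98 and 16.6 CPM in sh-LacZ cells. In MDA-MB-468 it had 136, 109 and 99.3 CPM in sh-SOX9-AS1 cells, S4 being the highest of them, against 210, 187 and 164 CPM in sh-LacZ cells. The groups did not overlap in either line, all sh-SOX9-AS1 libraries lying lower, which was so for 3.2% of the genes tested in both. SOX9 fell 1.41-fold in HCC1187 (log2 fold change −0.49 ± 0.16, edgeR adjusted p = 0.0256, 3 libraries a group). In MDA-MB-468 the log2 fold change of −0.68 ± 0.14 did not pass with all 6 libraries (edgeR adjusted p = 0.205), although its unadjusted p ranked 38 among 13638 genes, and SOX9 fell by 0.82 ± 0.10 without S4 (adjusted p = 2.02e-05). The HCC1187 call is lost without S8 (0.0992), S9 (0.0714) or S12 (0.204), with DESeq2 (0.0514) and with all 12 libraries in 1 fit (0.0919). In MDA-MB-468 SOX9, S4 kept, passed with DESeq2 (adjusted p = 0.0130). It also passed there in edgeR with no filter on low counts (0.000107) and with all 12 libraries in 1 fit (0.0221). These 3 settings called 289, 1441 and 887 genes in that line.

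The lines were also fitted together with 1 knockdown term, which tests a gene's average change over both and not whether the lines moved alike. SOX9 fell 1.51-fold over both lines (log2 fold change −0.60 ± 0.11, 95% interval −0.81 to −0.38, edgeR adjusted p = 0.0131, 12 libraries). This call, unlike that in HCC1187 alone, held without any single library, with adjusted p from 0.00140 (without S4) to 0.0423. SOX9-AS1 had a log2 fold change of −0.54 ± 0.19 over both lines, short of the threshold (adjusted p = 0.0941, and 0.0640 without S4). LINC00511 (−0.18 ± 0.14, adjusted p = 0.439) and COG1 (−0.02 ± 0.07, adjusted p = 0.907) did not pass over both lines, nor without S4 (0.126 and 0.900).

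**Figure D1:**
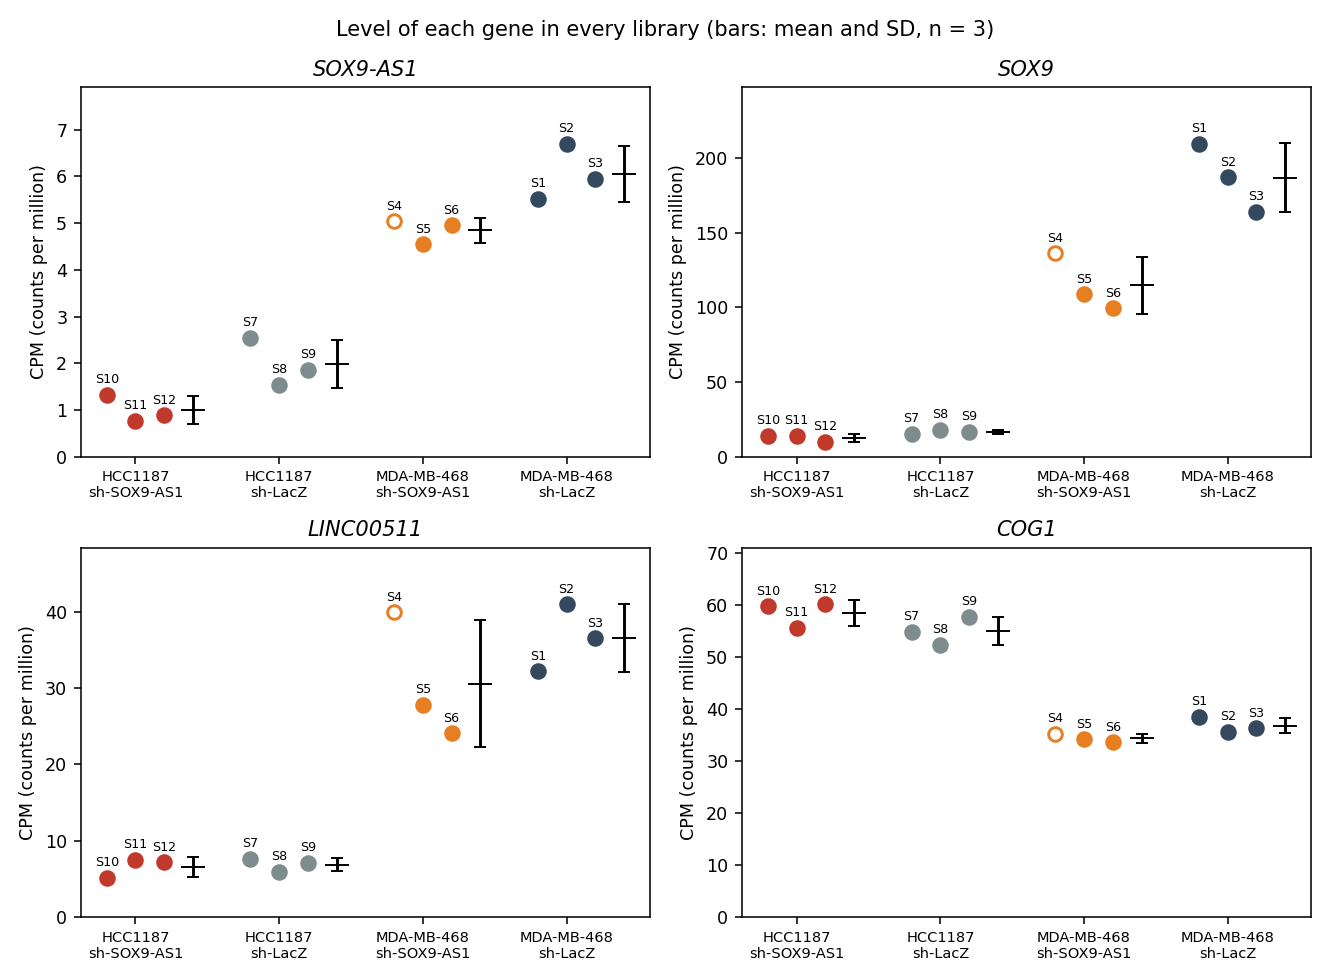
Level in CPM of SOX9-AS1, SOX9, LINC00511 and COG1 in every library, with each panel on its own linear axis from 0. Points are libraries (S4 open), and the bars beside them give mean and SD of 3 libraries. SOX9-AS1 and SOX9 lie lower in sh-SOX9-AS1 than in sh-LacZ libraries of both lines without overlap, as do 3.2% of the genes tested in both. LINC00511 in S4 stands with the sh-LacZ libraries.

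LINC00511 lies 164 kb beyond the end of SOX9. In HCC1187 it had 5.14, 7.56 and 7.19 CPM in sh-SOX9-AS1 cells, against 7.63, 5.91 and 7.08 CPM in sh-LacZ cells, and the groups overlapped. The log2 fold change was −0.10 ± 0.20 (95% interval −0.48 to 0.29, edgeR adjusted p = 0.768), and its sign turned without S10 (0.04). In MDA-MB-468 it had 39.9, 27.8 and 24.1 CPM in sh-SOX9-AS1 cells (S4, S5 and S6), against 32.2, 41.0 and 36.5 CPM in sh-LacZ cells. S5 and S6 lay below all sh-LacZ libraries, whereas S4 lay above S1 and S3. The log2 fold change was −0.24 ± 0.19 with all 6 libraries (edgeR adjusted p = 0.498), and LINC00511 fell by 0.47 ± 0.13 without S4 (adjusted p = 0.00973).

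COG1 had 59.7, 55.5 and 60.1 CPM in HCC1187 sh-SOX9-AS1 cells, against 54.8, 52.4 and 57.7 CPM in HCC1187 sh-LacZ cells, and the groups overlapped. Its log2 fold change of 0.03 ± 0.09 there did not pass (edgeR adjusted p = 0.844), and its 95% interval ran from −0.15 to 0.22. In MDA-MB-468 it had 35.3, 34.2 and 33.6 CPM in sh-SOX9-AS1 cells, against 38.5, 35.7 and 36.3 CPM in sh-LacZ cells. These groups did not overlap, S4 included, as in 12.5% of the genes tested in MDA-MB-468 in the downward direction. They lay close together (log2 fold change −0.08 ± 0.11, edgeR adjusted p = 0.701, and −0.10 ± 0.11 with adjusted p = 0.506 without S4).

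Counted together, 2 of the 4 genes passed in HCC1187, both downward, where 22.8% of all 14970 genes tested passed, 13.1% downward and 9.78% upward. Of all calls in HCC1187 42.8% were rises, and 57.4% were rises with library totals as the only scaling, under which SOX9-AS1 (adjusted p = 0.0455) and SOX9 (0.0485) still fell. In MDA-MB-468, 0 of the 4 passed by edgeR, where 1 of 13638 genes (0.00733%) did and 2555 (18.7%) had an unadjusted p under 0.05. DESeq2 called 289 genes there, SOX9 among them. Without S4, SOX9 and LINC00511 passed, both downward, where 40.7% of 13947 genes passed and 20.7% passed downward. Over both lines 1 of the 4 passed, where 6.86% of 16328 genes did and 3.61% passed downward (17.9% and 8.9% without S4). Groups in which all sh-SOX9-AS1 libraries lay below all sh-LacZ libraries were seen in 15.5% of the genes tested in HCC1187, in 12.5% in MDA-MB-468, and in 3.2% in both lines at once. SOX9-AS1 and SOX9 belong to that last set of 393 among 12267 genes.

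Whether the response differed between the lines was tested by the interaction of line and knockdown. The difference, HCC1187 minus MDA-MB-468, was −0.77 ± 0.38 for SOX9-AS1, 0.21 ± 0.22 for SOX9, 0.15 ± 0.29 for LINC00511 and 0.12 ± 0.14 for COG1 on the log2 scale. None of the 4 passed (edgeR adjusted p = 0.268, 0.625, 0.833 and 0.665), where 3.75% of 16328 genes did. None of the 4 passed without S4 either (adjusted p from 0.202 to 0.563), where 25.6% of genes did. The larger fall of SOX9-AS1 in HCC1187 was therefore not shown to differ from that in MDA-MB-468.

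Both genes of the divergent pair had lower CPM in sh-SOX9-AS1 cells, although neither passed in the filtered edgeR fit of all 6 MDA-MB-468 libraries. Their balance was compared as SOX9-AS1 counts per 100 SOX9 counts. This measure is free of library scaling but not of gene length. In HCC1187 it was 9.64, 5.49 and 9.09 in sh-SOX9-AS1 cells (S10, S11 and S12), against 16.7, 8.55 and 11.2 in sh-LacZ cells (S7, S8 and S9). The groups overlapped, S8 lying below S10 and S12. In MDA-MB-468 it was 3.70, 4.18 and 4.99 in sh-SOX9-AS1 cells (S4, S5 and S6), against 2.63, 3.58 and 3.63 in sh-LacZ cells (S1, S2 and S3). There the groups did not overlap, and the ratio was higher in the sh-SOX9-AS1 cells. The mean log2 ratio, with 0.5 added to each count, differed by −0.52 in HCC1187 (two-sided exact permutation p = 0.3) and by 0.40 in MDA-MB-468 (exact p = 0.1), where 0.1 is the smallest p that 3 against 3 libraries allow. Without S4 the MDA-MB-468 difference was 0.50 (two-sided exact permutation p = 0.1, again the smallest possible). The 2 lines differed in opposite directions, so their differences cancel in the value over both lines, −0.06 (exact permutation within lines, 400 labelings, p = 0.8). Neither line alone could pass a threshold of 0.05 in this test.

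**Figure D2:**
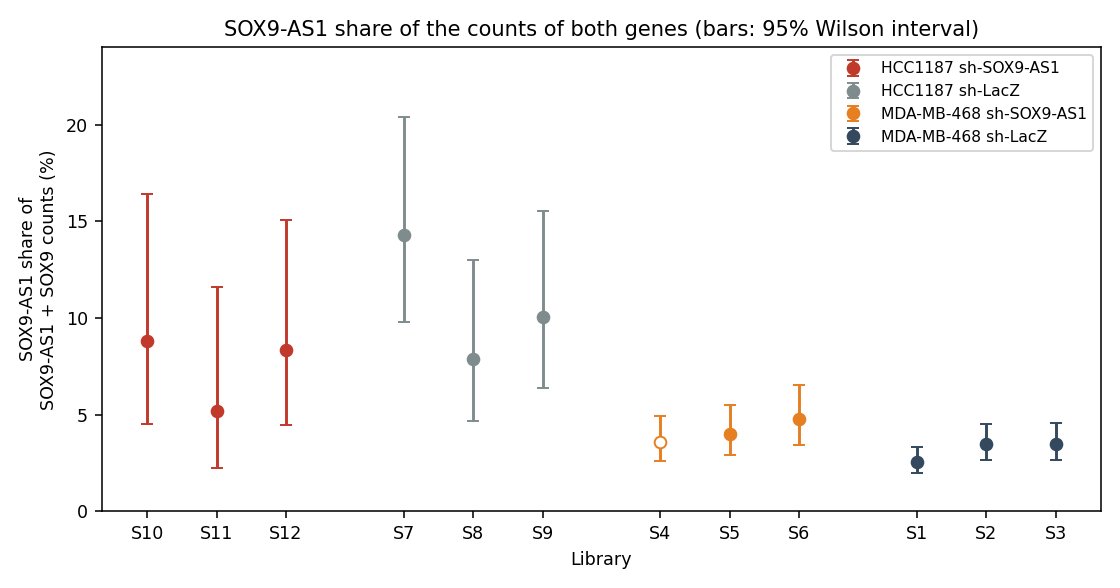
SOX9-AS1 counts as a percentage of the summed SOX9-AS1 and SOX9 counts in each library, by group, with 95% Wilson intervals that cover counting error only. S4 is drawn open. The share runs from 5.21% to 14.3% in HCC1187 and from 2.56% to 4.76% in MDA-MB-468, with wide intervals in HCC1187, where SOX9-AS1 has at most 24 counts.

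The lines themselves differed far more than the hairpin groups did. In sh-LacZ cells SOX9 averaged 16.6 ± 1.36 CPM in HCC1187 and 187 ± 22.9 CPM in MDA-MB-468 (SD, n = 3 each), a 13.3-fold lower level in HCC1187 (log2 fold change −3.73 ± 0.11, edgeR adjusted p = 2.53e-18). LINC00511 averaged 6.87 ± 0.876 CPM in HCC1187 and 36.6 ± 4.402 CPM in MDA-MB-468 sh-LacZ cells (−2.63 ± 0.14, adjusted p = 1.28e-13). SOX9-AS1 averaged 1.98 ± 0.514 CPM in HCC1187 and 6.06 ± 0.601 CPM in MDA-MB-468 sh-LacZ cells (−1.82 ± 0.24, adjusted p = 4.08e-07). SOX9, SOX9-AS1 and LINC00511 were thus lower in HCC1187.

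COG1 went the other way, with 55.0 ± 2.68 CPM in HCC1187 and 36.8 ± 1.496 CPM in MDA-MB-468 sh-LacZ cells (log2 fold change 0.34 ± 0.09, edgeR adjusted p = 0.00197). All 4 genes passed between the lines, but so did 84.1% of the 15592 genes tested, 43.6% as higher and 40.4% as lower in HCC1187. Scaling by library totals alone raised the median of all genes by 0.23 on the log2 scale in this comparison. Relative to the median of all genes, COG1 lay 0.28 higher in HCC1187 under both scalings, and the difference of SOX9 was −3.79 under both. The SOX9-AS1 to SOX9 log2 ratio was 1.87 higher in HCC1187 than in MDA-MB-468 sh-LacZ cells, and the libraries did not overlap (exact permutation p = 0.1, the smallest possible), SOX9 differing between the lines by more than SOX9-AS1.

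Per kb of exon, with the lengths given in the tables, the order of mean levels in HCC1187 sh-LacZ cells was COG1 (10.3 CPM per kb), SOX9 (4.22), LINC00511 (0.249) and SOX9-AS1 (0.109). In MDA-MB-468 sh-LacZ cells it was SOX9 (47.5 CPM per kb), COG1 (6.92), LINC00511 (1.32) and SOX9-AS1 (0.334). No neighbours in either order overlapped in their libraries. SOX9 stood first in MDA-MB-468 and second to COG1 in HCC1187. The length of SOX9-AS1 depends on the annotation, as given above, so its level per kb would be higher over the shorter v29 exons.

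The wider locus was described by all 50 annotated genes within 2 Mb of SOX9, all of them in the tables. Most had few or no counts in the lane used. In HCC1187, 30 had 0 counts in all sh-SOX9-AS1 libraries and 30 in all sh-LacZ libraries. For MDA-MB-468 it was 32 and 27. In HCC1187, 12 of the 50 were abundant enough to test, of which 1 rose, 2 fell (SOX9-AS1 and SOX9) and 9 did not pass, a share close to the 22.8% of all genes that passed in this line. Their median log2 fold change was 0.07, against 0.01 over all genes. In MDA-MB-468, 9 were tested and 0 passed, with a median of −0.22 against 0.00. Without S4, 4 of the 9 fell, namely SOX9, LINC00511, CDC42EP4 (−0.42, adjusted p = 0.00102) and FAM104A (−0.28, adjusted p = 0.0433), and 0 rose, where 40.7% of all genes passed and 20.7% fell. CDC42EP4 encodes an effector of the small GTPase CDC42.

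The gene that rose in HCC1187 was LINC01152, which makes a long non-coding RNA from the plus strand and whose exons share 270 bases with those of SOX9-AS1 on the minus strand. It had 1.83, 1.39 and 1.38 CPM in sh-SOX9-AS1 cells (11, 9 and 14 counts in S10, S11 and S12), against 0.530, 0.473 and 0.327 CPM in sh-LacZ cells (5, 4 and 3 counts in S7, S8 and S9). All sh-SOX9-AS1 libraries lay above all sh-LacZ libraries, which was so for 24% of the genes tested in HCC1187. It passed the filter on low counts only through the sh-SOX9-AS1 libraries, and without that filter its adjusted p was 0.0101. LINC01152 rose by 1.67 ± 0.43 on the log2 scale (edgeR adjusted p = 0.00726), and passed without any single library (0.0157 to 0.0423). DESeq2 gave it no adjusted p, and an unadjusted p of 0.00963. Since LINC01152 passed the filter only where it is high, its direction among the filtered genes was fixed in advance. Its move opposite to SOX9-AS1 in HCC1187 is a description only. Without a stated strand setting, reads in the shared bases cannot be told apart. In MDA-MB-468 LINC01152 had 0 counts in lane 1 of all 6 libraries. This allows a level of up to 0.0620 CPM (3 counts in the 48398708 lane 1 counts of that line).

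**Figure D3:**
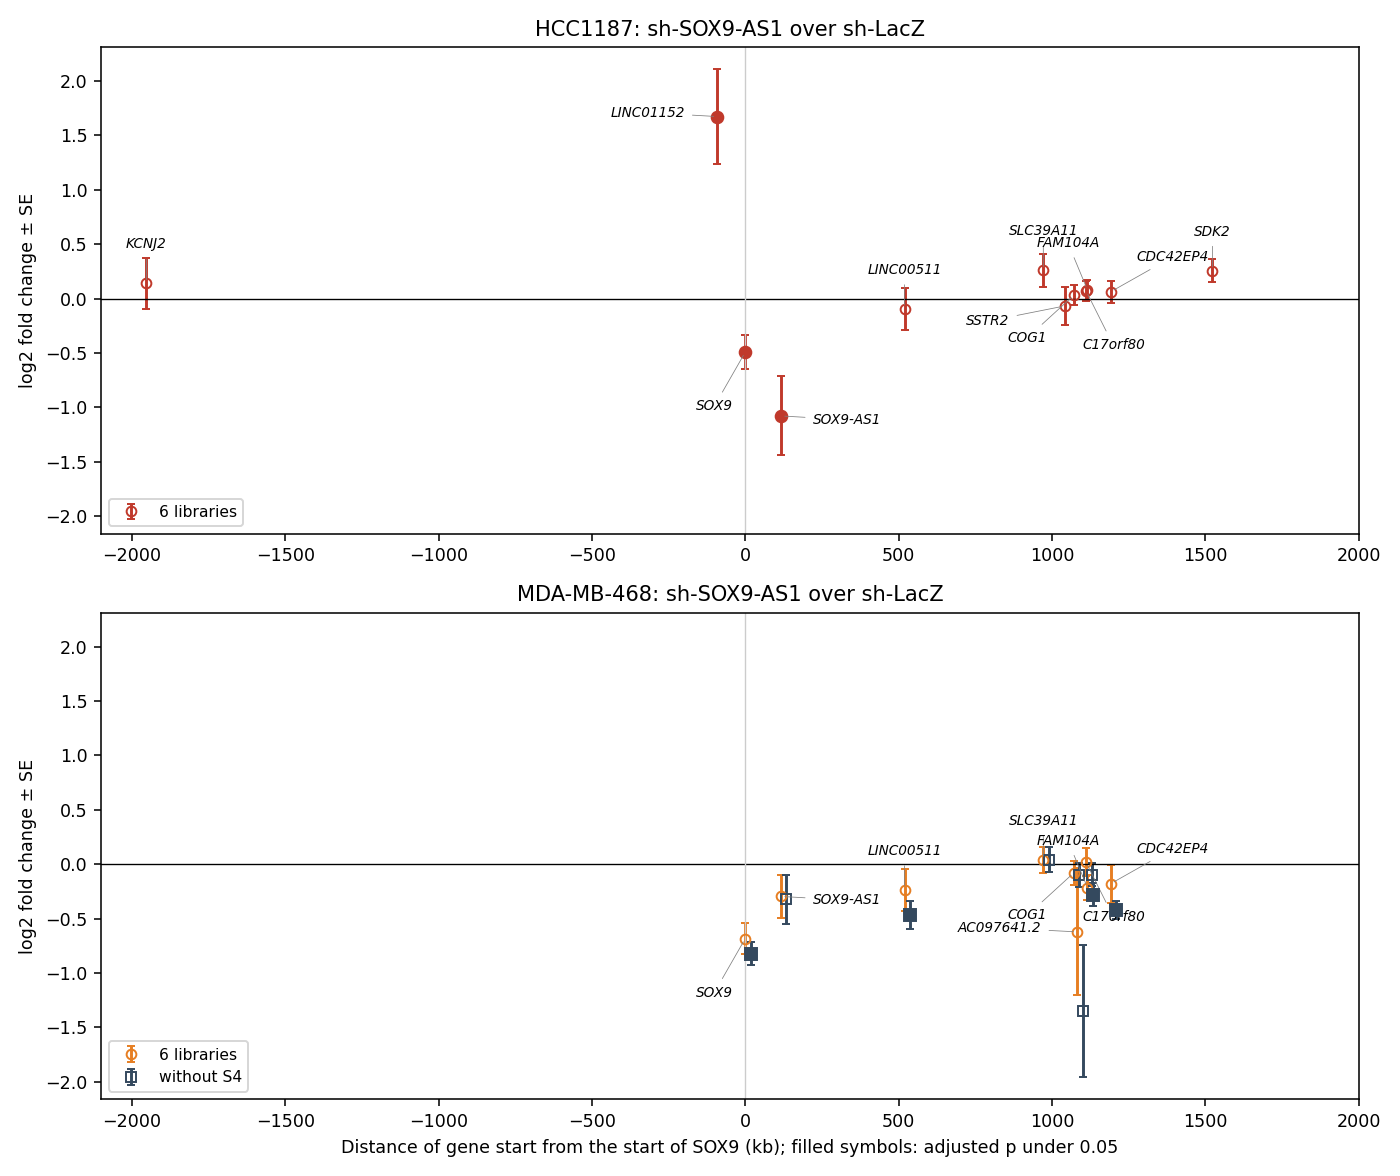
Log2 fold change with SE of every tested gene within 2 Mb of SOX9, sh-SOX9-AS1 over sh-LacZ, against the distance of its start from the start of SOX9 in kb. HCC1187 is above and MDA-MB-468 below, where squares, moved slightly to the right, give the values without S4. Filled symbols passed at an adjusted p under 0.05: LINC01152 lies above 0 in HCC1187, SOX9 and SOX9-AS1 below it, and COG1 and the genes around it lie near 0 in HCC1187.

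Between the sh-LacZ cells of the lines, 11 of the 50 genes were tested and all passed, 5 higher and 6 lower in HCC1187, where 84.1% of all genes passed, 43.6% as higher and 40.4% as lower. SDK2, SSTR2 and KCNJ2, among the 5, passed the filter on low counts only through HCC1187, where they are high, so their direction was fixed by that filter. SDK2, a cell adhesion protein of the immunoglobulin family, averaged 48.7 ± 1.19 CPM in HCC1187 and 0.498 ± 0.142 CPM in MDA-MB-468 (log2 fold change 6.35 ± 0.20, edgeR adjusted p = 1.53e-17). SSTR2, a somatostatin receptor, averaged 8.71 ± 1.23 CPM in HCC1187 and 0.0729 ± 0.0636 CPM in MDA-MB-468, where at most 1 count was seen per library. KCNJ2, a potassium channel, averaged 4.09 ± 0.702 CPM in HCC1187 and 0.196 ± 0.0820 CPM in MDA-MB-468.

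SLC39A11, a zinc transporter, and CDC42EP4 followed the direction of SOX9, with log2 fold changes of −2.13 ± 0.13 and −2.58 ± 0.08 in HCC1187 against MDA-MB-468. Just beyond COG1 the lines differed less: C17orf80 was higher in HCC1187 (0.55 ± 0.09) and FAM104A, whose exons overlap COG1, lower (−0.40 ± 0.08). Leaving aside SDK2, SSTR2 and KCNJ2, the tested genes within 2 Mb of SOX9 still differed between the lines in both directions. COG1 and C17orf80 were higher in HCC1187 and the others lower.

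**Figure D4:**
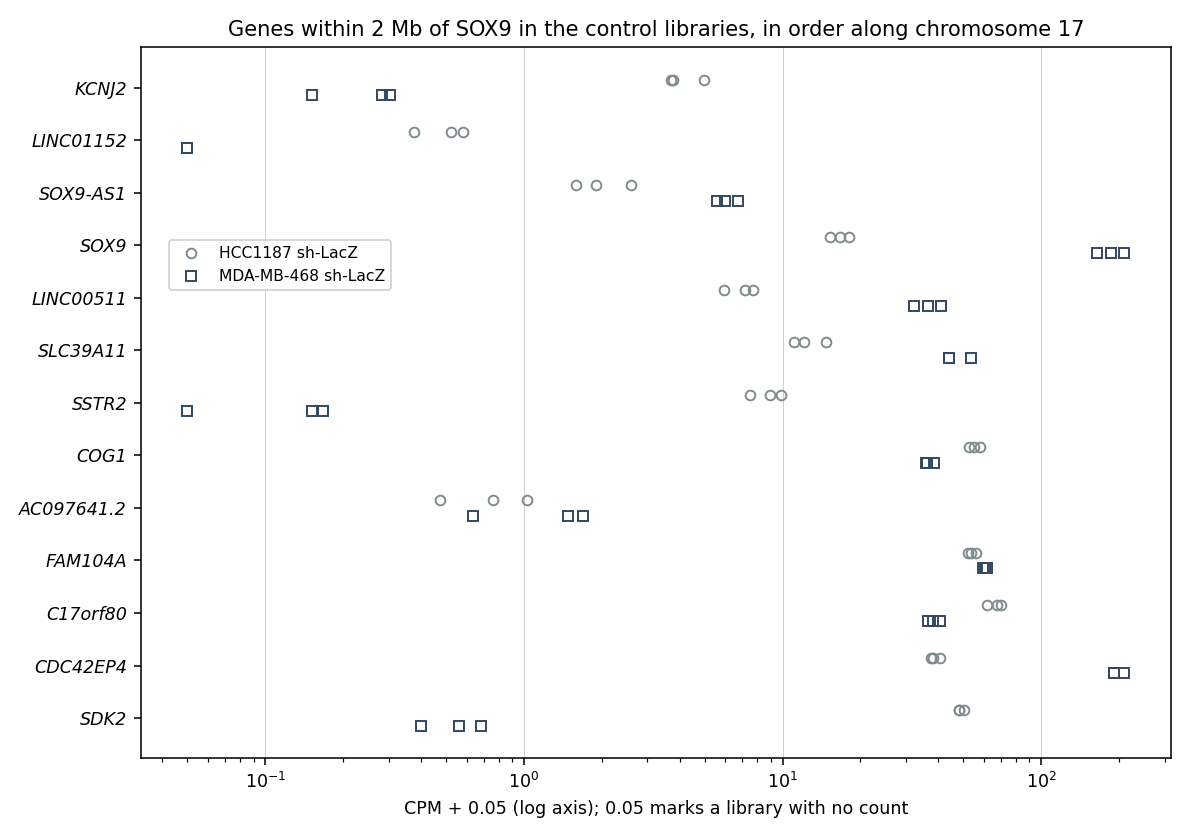
CPM of genes within 2 Mb of SOX9 that were tested in at least 1 knockdown comparison, in the 3 sh-LacZ libraries of HCC1187 (circles) and of MDA-MB-468 (squares), on a log axis with 0.05 added. Genes run down the page in their order along the chromosome. SOX9, LINC00511, SLC39A11 and CDC42EP4 lie lower in HCC1187, and KCNJ2, SSTR2 and SDK2 lie higher there.

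COG1 was next read beside the other 7 subunits of its complex. In HCC1187 1 of the 7, COG4, rose, 0 fell and 6 did not pass (median log2 fold change 0.01), where 22.8% of all genes passed. COG4 had 85.5, 76.2 and 87.6 CPM in HCC1187 sh-SOX9-AS1 cells, against 62.3, 60.3 and 64.5 CPM in sh-LacZ cells (0.36 ± 0.09, edgeR adjusted p = 0.00688). All its sh-SOX9-AS1 libraries lay above all its sh-LacZ libraries, as in 24% of the genes tested in HCC1187. With all 12 libraries in 1 fit the COG4 call was lost (adjusted p = 0.113). In MDA-MB-468 0 of the 7 passed with all 6 libraries (median 0.20). Without S4, 4 rose and 1 fell, where 20% of all genes rose and 20.7% fell. These were COG6 (0.81 ± 0.13), COG4 (0.57 ± 0.10), COG5 (0.43 ± 0.10) and COG3 (0.34 ± 0.10) upward and COG8 (−0.47 ± 0.17) downward.

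COG6, another subunit, had 20.02, 29.7 and 31.0 CPM in MDA-MB-468 sh-SOX9-AS1 cells (S4, S5 and S6), against 18.5, 18.2 and 15.98 CPM in sh-LacZ cells, with S4 close to the sh-LacZ libraries. Its response differed between the lines (difference −0.90 ± 0.22, edgeR adjusted p = 0.0374, and −1.08 ± 0.17 without S4, adjusted p = 3.06e-05), since in HCC1187 its log2 fold change was −0.27 ± 0.11 and did not pass (0.0786). COG1 itself passed in neither line, with or without S4.

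Genes known as targets or partners of SOX9 in cartilage, testis and epithelium made up a list of 21. In HCC1187, 12 were tested, of which 5 fell, 0 rose and 7 did not pass, where 13.1% of all genes fell and 9.78% rose. Their median log2 fold change was −0.21, against 0.01 over all genes. The 5 that fell were MATN3, COL2A1, SOX6, LGR5 and SOX5. MATN3, a matrix protein of cartilage, had 4.15, 4.01 and 2.76 CPM in sh-SOX9-AS1 cells, against 5.72, 7.21 and 6.75 CPM in sh-LacZ cells (−0.95 ± 0.22, edgeR adjusted p = 0.00342). COL2A1, the collagen of cartilage and a direct SOX9 target there, had 158, 141 and 147 CPM in sh-SOX9-AS1 cells, against 177, 169 and 181 CPM in sh-LacZ cells (−0.30 ± 0.08, adjusted p = 0.0115). Neither gene's groups overlapped, as in 15.5% of the genes tested in HCC1187 in the downward direction.

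SOX6 and SOX5, which act with SOX9 in cartilage, fell by 0.55 ± 0.17 (edgeR adjusted p = 0.0197) and 0.61 ± 0.22 (0.0447) in HCC1187, and LGR5, a stem cell receptor for R-spondins, fell by 0.58 ± 0.18 (0.0202). The calls of SOX5, SOX6 and LGR5 were lost when some single libraries were left out, SOX5 in 5 of 6 cases, while those of MATN3 and COL2A1 were kept in all 6. With all 12 libraries in 1 fit MATN3 still fell (edgeR adjusted p = 0.0388), while COL2A1 (0.15), SOX6 (0.127), LGR5 (0.104) and SOX5 (0.215) did not pass, and DESeq2 did not call LGR5 (0.0580) or SOX5 (0.106). In MDA-MB-468 all 5 genes were at or near 0, with at most 2 counts in any library. The list had 4 tested genes in that line, of which 0 passed with all 6 libraries and 4 rose without S4, where 20% of genes rose. Among them COL9A2, a collagen of cartilage, had 6.91, 24.6 and 21.5 CPM in sh-SOX9-AS1 cells (S4, S5 and S6), against 7.66, 7.46 and 8.98 CPM in sh-LacZ cells. Its log2 fold change of 1.16 ± 0.40 was short of the threshold (edgeR adjusted p = 0.209), and it rose by 1.54 ± 0.16 without S4 (2.47e-06). The other rises of the list without S4 lay just under the threshold (edgeR adjusted p = 0.0408, 0.0441 and 0.04997).

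Markers of other cell types were read in the same libraries. The summed level of 7 basal markers ranged from 219 to 235 CPM in HCC1187 sh-SOX9-AS1 and from 255 to 276 CPM in HCC1187 sh-LacZ cells, and in MDA-MB-468 from 5714 to 7901 and from 7708 to 7837 CPM. That of 7 luminal markers ranged from 283 to 313 CPM in HCC1187 sh-SOX9-AS1 and from 340 to 342 CPM in HCC1187 sh-LacZ cells, and in MDA-MB-468 from 4298 to 5097 and from 4289 to 4881 CPM. Both sums were lower in the HCC1187 sh-SOX9-AS1 libraries, without overlap, and their part in the fall of SOX9 was not tested. Of the 4 basal markers tested in HCC1187 only FOXC1 fell (−0.42, edgeR adjusted p = 0.000929), and of the 4 luminal markers tested KRT8, KRT18 and FOXA1 fell, while 13.1% of all genes did. In MDA-MB-468 0 of 7 basal markers passed with all 6 libraries (median −0.71). Without S4, whose basal sum of 7901 CPM stood above the 5798 and 5714 CPM of S5 and S6, 5 of the 7 fell and 0 rose (median −1.02), where 20.7% of all genes fell, and of 6 luminal markers tested 2 fell and 1 rose. The part of these markers in the changes seen without S4 was not tested. The 5 fibroblast markers summed to 71.9 to 90.8 CPM in HCC1187 sh-SOX9-AS1 and 64.9 to 74.0 CPM in HCC1187 sh-LacZ cells, and in MDA-MB-468 to 13.3 to 18.7 and 11.1 to 14.2 CPM. COL1A2 had 0 counts in all libraries of both lines, DCN and LUM in all of MDA-MB-468. The 4 leukocyte markers summed to 2.95 to 4.48 CPM in HCC1187 sh-SOX9-AS1 and 2.48 to 4.34 CPM in HCC1187 sh-LacZ cells, and in MDA-MB-468 to 95.5 to 142 and 74.2 to 127 CPM, nearly all from CD14 there. CD3E had 0 counts in all libraries, and PTPRC averaged at most 0.229 CPM in any group.

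The genes whose pattern over the 12 libraries was most like that of SOX9 were found by the root mean square difference of log2(CPM + 0.5), each gene centred on the mean of its line, among 10122 genes with at least 5 CPM on average in each line. The nearest were NFAT5 (0.108), AP1S3 (0.120), MXD1 (0.121), UBQLN2 (0.132) and MANEAL (0.142), against a median difference of 0.371 over all candidates. NFAT5 encodes the transcription factor of the hypertonic stress response. It had 105, 102 and 85.8 CPM in HCC1187 sh-SOX9-AS1 cells, against 107, 126 and 112 CPM in HCC1187 sh-LacZ cells. In MDA-MB-468 it had 40.9, 28.8 and 31.5 CPM in sh-SOX9-AS1 cells, against 54.8, 53.8 and 47.7 CPM in sh-LacZ cells.

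**Figure D5:**
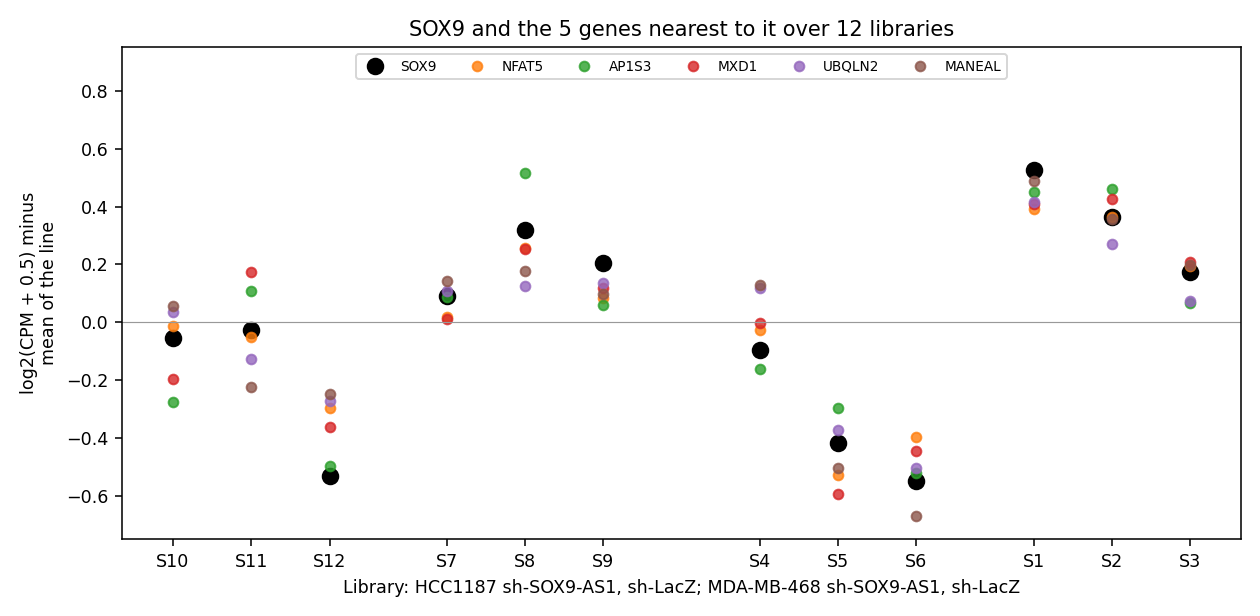
Deviation of log2(CPM + 0.5) from the mean of the line in each library, for SOX9 (large black points) and the 5 genes nearest to it, which were chosen for this likeness. From left to right stand HCC1187 sh-SOX9-AS1, HCC1187 sh-LacZ, MDA-MB-468 sh-SOX9-AS1 and MDA-MB-468 sh-LacZ. SOX9 is lowest in S12 and S6 and highest in S1.

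SOX9-AS1 was no candidate, since its level in HCC1187 is below the minimum of 5 CPM. Its difference from SOX9 was 0.316, which would rank 2742 among the 10122 candidates. A gene that did not change within either line would differ from SOX9 by 0.337. The genes nearest to SOX9-AS1, among 12248 with at least 1 CPM on average in each line, were ZFP36L2 (0.156), NDUFAF8 (0.167), TMEM250 (0.174), CDKN2A (0.177) and NAPG (0.179), against a median of 0.388. ZFP36L2 encodes a protein that binds AU-rich elements and promotes mRNA decay. It had 27.9, 21.8 and 24.8 CPM in HCC1187 sh-SOX9-AS1 cells, against 37.4, 35.7 and 37.4 CPM in HCC1187 sh-LacZ cells. In MDA-MB-468 it had 140, 113 and 119 CPM in sh-SOX9-AS1 cells, against 142, 141 and 135 CPM in sh-LacZ cells. The counting error of SOX9-AS1, with 5 to 54 counts per library, enters each of its differences.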

How the data were processed

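RNA was extracted with TRIzol and libraries were made with a stranded TruSeq mRNA kit and 76 bp paired reads, per the labels' protocols. The authors deposited raw counts per gene. Per the submitters' processing notes the tools were featureCounts 2.0.0, HISAT2 2.1.0, Trimmomatic 0.39, SAMtools, MultiQC 1.11 and FastQC 0.11.9, and the build GRCh38. Settings, strand use and annotation release are not given in the sources. Columns name the group, the library and 1 of 3 lanes, but no replicate. Lane 1 of each library was used and 24 of 36 count columns were not, so counts are lower than those of whole libraries. The columns of sh-SOX9-AS1 libraries are named BLANCO as well, without an explanation.

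Genes were filtered with filterByExpr (minimum count 10, minimum total 15), scaled by TMM and tested in edgeR 4.0.16 (quasi-likelihood F-test, R 4.3.3), with Benjamini-Hochberg adjustment over all genes tested and a threshold of 0.05. Each comparison used the libraries of its own groups. SE is the log2 fold change over the root of F. The 95% intervals are 1.96 SE, a normal approximation that is narrower than the F-test would give with so few libraries. CPM levels use plain library totals. The ratio was tested by exact permutation. The scripts were tested on simulated data. Alternatives were DESeq2 1.42.0, RLE or library-total scaling, no filter, all 12 libraries in 1 fit and leaving out each library. Up to 6 genes of the COG and SOX9 target lists could be named, by smallest unadjusted p in either line, and the 5 genes nearest to SOX9 and to SOX9-AS1. The members, lists and rules were chosen with earlier results of these data known. Coordinates and gene spans are from GENCODE v29.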

Additional observations from a re-analysis of the deposited data

How the results depend on the processing

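Of 167 values under other settings 150 kept their direction and side of the threshold, as did 246 of 276 with a library left out. DESeq2 gave no adjusted p for SOX9-AS1 in HCC1187 (log2 fold change −1.08, unadjusted p = 0.0407). This value and that of LINC01152, which had none either, are not among the 167. SOX9 in HCC1187 no longer passed with DESeq2 (−0.49, adjusted p = 0.0514) or all 12 libraries in 1 fit (−0.48, 0.0919). In MDA-MB-468 it passed with no filter (−0.69, 0.000107), DESeq2 (−0.68, 0.0130) and all 12 libraries in 1 fit (−0.68, 0.0221). The cause was not tested.

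With a library left out, SOX9-AS1 ran from −1.28 to −0.87 and SOX9 from −0.62 to −0.31 in HCC1187, and in MDA-MB-468 SOX9 from −0.82 to −0.60 and LINC00511 from −0.47 to −0.10. Signs turned for LINC00511 in HCC1187 (−0.20 to 0.0392, without S10), COG1 in HCC1187 (−0.00577 to 0.0777, without S8), COG1 over both lines (−0.0439 to 0.00297, without S1) and the ratio over both lines (−0.17 to 0.0640, without S7, and 0.0579 without S11).

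Genes passing in HCC1187 numbered 3418, 1499 with all 12 libraries in 1 fit, and 2213 to 3407 with a library left out. In MDA-MB-468 it was 1, against 1441 with no filter, 289 with DESeq2, 887 with all 12 libraries and 0 to 5678. For the difference between the lines it was 613, against 1415 with no filter, 1142 with DESeq2 and 129 to 4300. Over both lines it was 1120, against 2110 with no filter, 1903 with DESeq2 and 175 to 3003.

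No paired analysis was possible because the columns carry no replicate number. Summed lanes were not run. SOX9-AS1 and LINC01152 in HCC1187 rest on at most 24 counts per library in the 1 lane used, which limits both.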
